A study of Homo sapiens with 4 samples.

Results

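The genes followed here belong to the intermediate filament cytoskeleton and are the keratins KRT7, KRT8, KRT10, KRT18, KRT19 and KRT80, vimentin (VIM) and nestin (NES). They were chosen by name, and every probe set whose only gene symbol in the platform annotation was 1 of these 8 was read, which gave 16 of the 54675 probe sets on the array and 8 of 19738 genes. RNA of 2 related human lung adenocarcinoma lines was hybridised to 4 Affymetrix arrays, each read in 1 colour. The groups were CL1-5 with a PSAT1 short hairpin, CL1-5 with a non-silencing hairpin, CL1-0 with a PSAT1 expression vector and CL1-0 with an empty control vector. Every CL1-5 array thus carried a hairpin vector and no CL1-0 array did, so line and vector type cannot be told apart. Per the labels, every culture was a stable transductant selected with puromycin over 2 weeks. CL1-5 is a more invasive subline obtained from CL1-0, and PSAT1 is the transaminase of the serine synthesis pathway. Each group was 1 array of a selected culture, so there was no replicate, and the number of arrays limits the precision of every value.

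Intermediate filaments are rope-like polymers that give a cell mechanical strength. Keratins are the epithelial kind and assemble only as pairs of an acidic type I chain (among these genes KRT10, KRT18 and KRT19) with a basic type II chain (KRT7, KRT8 and KRT80). KRT8 and KRT18 are the partner pair of simple epithelia, and in most glandular carcinomas they come with KRT7 and KRT19. Vimentin is the type III filament of mesenchymal cells and is widely used as a marker of carcinoma cells that have taken on mesenchymal features. Nestin, found in progenitor cells, does not build filaments alone and joins those of vimentin.

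In short, the data showed a large difference between the lines and none of 2-fold or more with either PSAT1 construct. KRT8 was 16.3-fold and KRT18 7.01-fold higher in CL1-5 than in CL1-0, NES was 2.65-fold higher, KRT10 was 2.12-fold lower, and VIM differed by 1.33-fold. The KRT10 call was lost with quantile normalization (log2 -0.37) and with median centring (-0.47), and the NES call with the mean over its probe sets (0.80). Between either construct and its control these genes differed by 1.62-fold at most, the value of NES in CL1-5. PSAT1 itself was under 2-fold higher with its vector in CL1-0, at 1.30-fold and 1.07-fold by its probe sets. Differences of 2-fold or more between 2 arrays are called higher or lower, rose or fell, a rule of size alone, and no test was possible.

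The windows of 250 bases before the annotated transcript start were in the RefSeq promoter table (GRCh38.p14) for 4 of the 8 genes. They are printed because KRT8, KRT10 and NES differed 2-fold or more between the lines and VIM, the fourth, did not. Each is on its gene's own strand, 5′ to 3′, at chr12:52926470-52926719 (minus strand) for KRT8, chr17:40822615-40822864 (minus) for KRT10, chr10:17227991-17228240 (plus) for VIM and chr1:156677408-156677657 (minus) for NES. The KRT8 window lies inside the span that RefSeq gives the KRT8 gene, before a start other than its outermost one. Capitals mark matches, on either strand, to a TATA box (TATAAA), a GC box (GGGCGG), an E-box (CANNTG) or an AP-1 site (TGANTCA).
KRT8: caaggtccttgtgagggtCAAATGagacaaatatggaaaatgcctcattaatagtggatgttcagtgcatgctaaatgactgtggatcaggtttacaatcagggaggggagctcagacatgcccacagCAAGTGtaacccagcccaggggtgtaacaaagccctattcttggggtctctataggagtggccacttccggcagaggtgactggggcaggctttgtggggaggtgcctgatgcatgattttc
KRT10: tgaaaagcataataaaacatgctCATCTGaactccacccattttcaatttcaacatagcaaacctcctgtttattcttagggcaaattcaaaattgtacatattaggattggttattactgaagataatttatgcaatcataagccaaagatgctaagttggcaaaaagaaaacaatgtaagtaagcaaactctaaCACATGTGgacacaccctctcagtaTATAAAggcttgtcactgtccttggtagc
VIM: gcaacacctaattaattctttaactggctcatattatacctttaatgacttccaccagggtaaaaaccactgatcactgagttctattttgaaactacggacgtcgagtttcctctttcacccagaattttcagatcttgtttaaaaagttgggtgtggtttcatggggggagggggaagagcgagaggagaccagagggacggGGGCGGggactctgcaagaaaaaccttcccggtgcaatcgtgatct
NES: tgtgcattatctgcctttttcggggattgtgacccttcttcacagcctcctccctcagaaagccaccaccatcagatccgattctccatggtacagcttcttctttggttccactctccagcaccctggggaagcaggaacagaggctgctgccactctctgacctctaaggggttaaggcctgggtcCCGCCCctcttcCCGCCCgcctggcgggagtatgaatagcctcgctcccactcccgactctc

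The keratin windows held E-boxes, 2 for KRT8 and 3 for KRT10 (2 of these overlap each other), while VIM had 1 GC box and NES had 2. The KRT10 window also held a TATA box, whose first base lay 29 bases before the start. Among 35116 windows of the same length in the table, 61.8% held an E-box, 42.6% a GC box, 10.7% a TATA box and 6.57% an AP-1 site. No AP-1 match was in any of the 4 windows, which says only that these letters were not there. GC content was 50.4% for KRT8, 34.8% for KRT10, 46.0% for VIM and 58.0% for NES. A match is a description of the letters, not a bound site, and these data hold no measurement of binding.

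Of the 16 probe sets, 7 were above the floor on all 4 arrays and 12 on 1 array or more. The floor was a signal of 49.0, the median of all non-control probe sets over the 4 arrays, and stood in for detection calls. Signals below it were set to it, so a ratio against an array at the floor is a lower bound, written "at least". The 4 arrays had from 48.0% to 52.0% of probe sets above the floor. As a check of the constructs, the brighter PSAT1 probe set gave 143 in hairpin CL1-5 cells against 1760 in their control. In CL1-0 it read 5494 with the PSAT1 vector against 4214 with the control vector, a 1.30-fold difference. The other PSAT1 probe set read 107 against 384 in the CL1-5 pair, and 1617 against 1509 in the CL1-0 pair, a 1.07-fold difference. By neither probe set was PSAT1 2-fold higher with its vector in CL1-0.

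**Figure D1:**
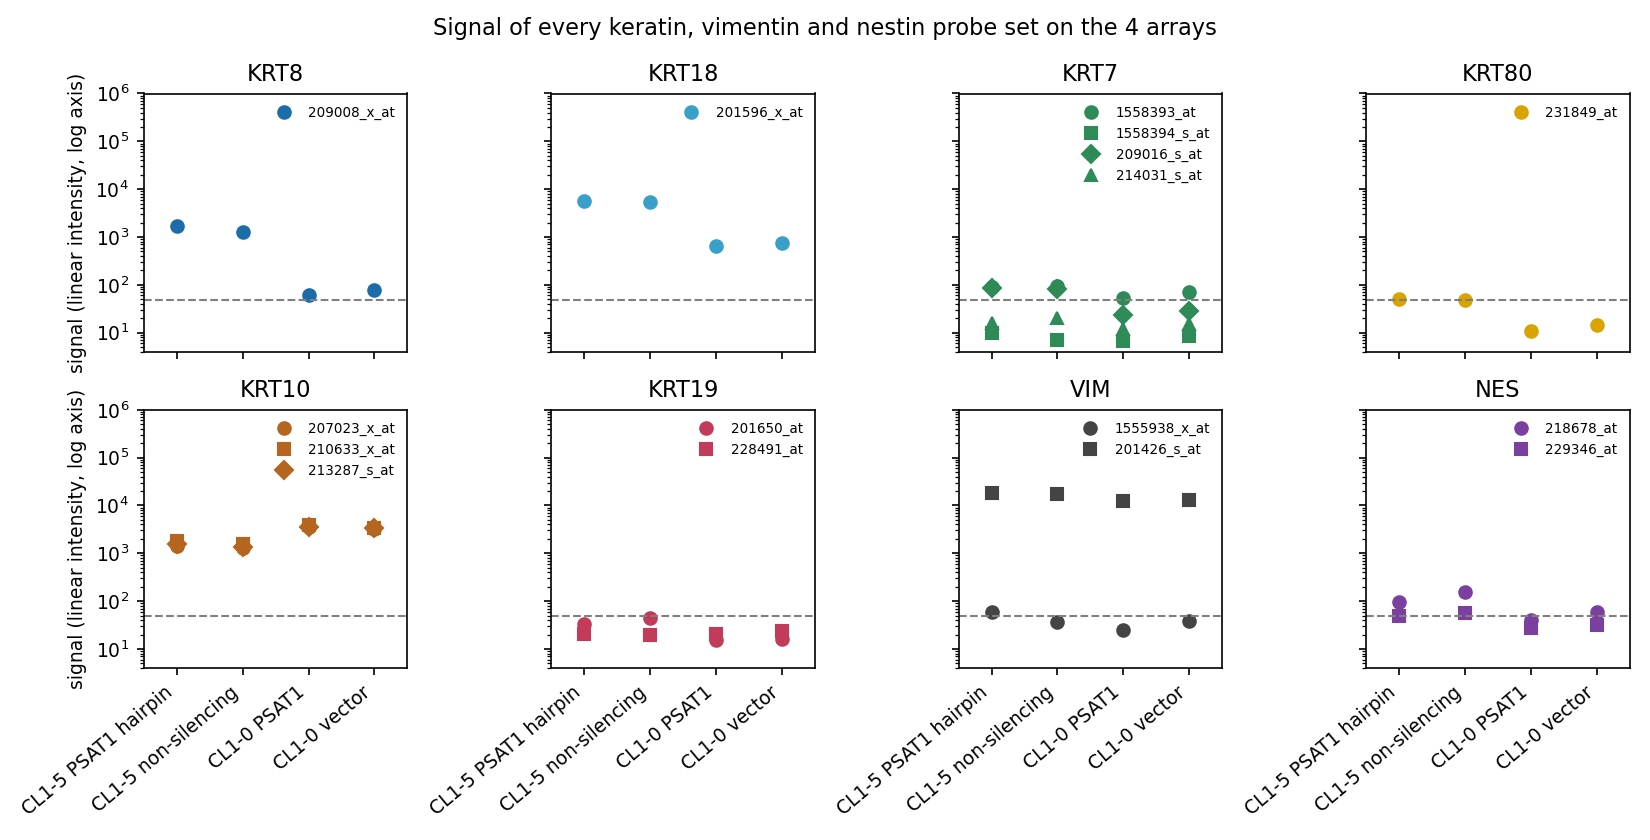
Signal of each of the 16 probe sets (points, 1 shape per probe set, linear intensity on a log axis) on the 4 arrays, 1 panel per gene, with the floor of 49.0 as a dashed line. KRT8 and KRT18 sit far higher on both CL1-5 arrays than on both CL1-0 arrays, the 3 KRT10 probe sets sit lower there, and both KRT19 probe sets stay under the floor.

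The simple-epithelial pair differed most between the lines. KRT8, read by 1 probe set (209008_x_at), had a signal of 1675 with the PSAT1 hairpin and 1271 with the non-silencing hairpin in CL1-5, against 60.4 with PSAT1 and 77.8 with vector in CL1-0. Both CL1-0 values lay just above the floor and both CL1-5 values far above it. For KRT18 (201596_x_at) the signals were 5657 and 5308 on the hairpin and non-silencing arrays of CL1-5, against 635 and 757 on the PSAT1 and vector arrays of CL1-0. Here all 4 arrays were well above the floor. Between the control arrays, CL1-5 over CL1-0, the log2 ratios were 4.03 for KRT8 and 2.81 for KRT18. Only 65 of 13718 measured genes had a ratio as high as that of KRT8 (KRT8 included), and 178 one as high as that of KRT18.

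The other keratins of glandular carcinomas were close to the floor or under it. KRT7, the usual type II companion of KRT8 in lung adenocarcinoma, read 89.0 and 94.5 on the hairpin and non-silencing arrays of CL1-5 and 54.0 and 70.2 on the PSAT1 and vector arrays of CL1-0 (1558393_at). Its second probe set (209016_s_at) was above the floor in CL1-5 alone, at 84.0 with the hairpin and 82.8 with the non-silencing control, against 23.4 and 28.6 on the PSAT1 and vector arrays. Between the control arrays these gave 1.35-fold and at least 1.69-fold, both with CL1-5 on top. The first is under 2-fold. The second is a lower bound, so a 2-fold difference cannot be told from a smaller one. The remaining KRT7 probe sets, 1558394_s_at and 214031_s_at, stayed between 6.66 and 20.6 on all 4 arrays.

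KRT19, a type I keratin without the usual tail domain whose serum fragment is a lung cancer marker, was under the floor on every array. Its first probe set (201650_at) read 33.0 and 43.4 on the hairpin and non-silencing arrays of CL1-5 against 15.2 and 16.4 on the PSAT1 and vector arrays of CL1-0, and the second (228491_at) ranged from 19.9 to 23.7. KRT80, a type II keratin of many epithelia, read 50.9 with the hairpin and 47.9 with the non-silencing control in CL1-5, and 10.7 with PSAT1 and 14.2 with vector in CL1-0. Only the hairpin array was above the floor, by a small margin. Neither gene was measured between the control arrays, and a signal under the floor does not show that a gene was off.

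KRT10, a type I keratin best known from the upper layers of epidermis where it pairs with KRT1, ran the other way. The one that stands for the gene (210633_x_at, the brightest) read 1787 and 1600 on the hairpin and non-silencing arrays of CL1-5 and 3902 and 3387 on the PSAT1 and vector arrays of CL1-0. Across the 3 probe sets, CL1-5 values lay between 1305 and 1787 and CL1-0 values between 3297 and 3902. Between the control arrays the log2 ratios, CL1-5 over CL1-0, were -1.08, -1.34 and -1.31 for 210633_x_at, 207023_x_at and 213287_s_at. KRT1, its usual partner, was under the floor on all 4 arrays. The antisense transcript KRT10-AS1 has its own probe set, which read 512 and 528 on the hairpin and non-silencing arrays of CL1-5 against 848 and 770 on the PSAT1 and vector arrays of CL1-0, a log2 ratio of -0.54 between the controls.

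Vimentin was bright on all 4 arrays. Its main probe set (201426_s_at) read 17915 with the PSAT1 hairpin and 17681 with the non-silencing hairpin in CL1-5, against 12260 with PSAT1 and 13287 with vector in CL1-0. The CL1-5 control array read 1.33-fold higher than the CL1-0 control array, which is under 2-fold. Between 38 and 270 probe sets per array were brighter, and whether such signals neared the scanner's limit is not stated. The other VIM probe set (1555938_x_at) was above the floor on 1 array, at 58.5 with the hairpin, and added no line comparison.

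Nestin was dim. Its brighter probe set (218678_at) read 98.1 and 159 on the hairpin and non-silencing arrays of CL1-5, against 39.5 and 60.1 on the PSAT1 and vector arrays of CL1-0. The ratio between the controls was 2.65-fold (log2 1.40). The dimmer probe set (229346_at) read 49.1 and 55.9 in CL1-5 with hairpin and non-silencing control, against 27.5 and 31.8 in CL1-0 with PSAT1 and vector, so that its control ratio was at least 1.14-fold.

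Set against all genes, 3 of the 6 genes measured between the control arrays were higher in CL1-5 (KRT8, KRT18 and NES) and 1 was lower (KRT10), where 5.25% of the 13718 measured genes were higher and 24.8% lower (30.0% in either direction). Over all genes the split of calls itself moved with the scaling, with 17.5% of them higher in CL1-5 as reported, 51.7% with quantile normalization and 54.6% with median centring. The median log2 ratio was 0.92 over the 6 and -0.49 over all genes. Array medians were 46.0 and 45.4 on the hairpin and non-silencing arrays of CL1-5 against 53.2 on both CL1-0 arrays. The 75th percentiles lay further apart, at 173 and 177 against 272 with PSAT1 and 252 with vector. Signals of the CL1-5 arrays were thus lower, though not by 1 fixed factor. Relative to the median of all genes, the log2 ratios were 4.51 for KRT8, 3.30 for KRT18, 1.89 for NES, 0.91 for KRT7, 0.90 for VIM and -0.60 for KRT10. The lower call of KRT10 depended on the scale of the arrays, since its log2 ratio was -0.37 with quantile normalization and -0.47 with each array centred on its median, both under 2-fold, while KRT7 and VIM passed 2-fold under centring, at 1.04 and 1.03.

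The second array of each line gave a comparison that shares no array with the first, although its constructs differ. In both pairs CL1-5 carried a hairpin vector and CL1-0 did not, so line and vector type cannot be told apart in either. With the PSAT1 hairpin in CL1-5 against PSAT1 in CL1-0, KRT8 was 27.7-fold and KRT18 8.90-fold higher, and KRT10 was 2.18-fold lower. NES, at 98.1 against an array under the floor, only just passed the 2-fold limit, and VIM differed by 1.46-fold. Of 7 measured genes, 3 were higher and 1 lower, where 5.31% of 13708 genes were higher and 27.7% lower (33.0% in all). KRT8, KRT18, NES and KRT10 passed 2-fold in the same direction in both pairs of arrays. Among the 13361 genes measured in both, 4.02% were higher in both and 19.5% lower in both.

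**Figure D2:**
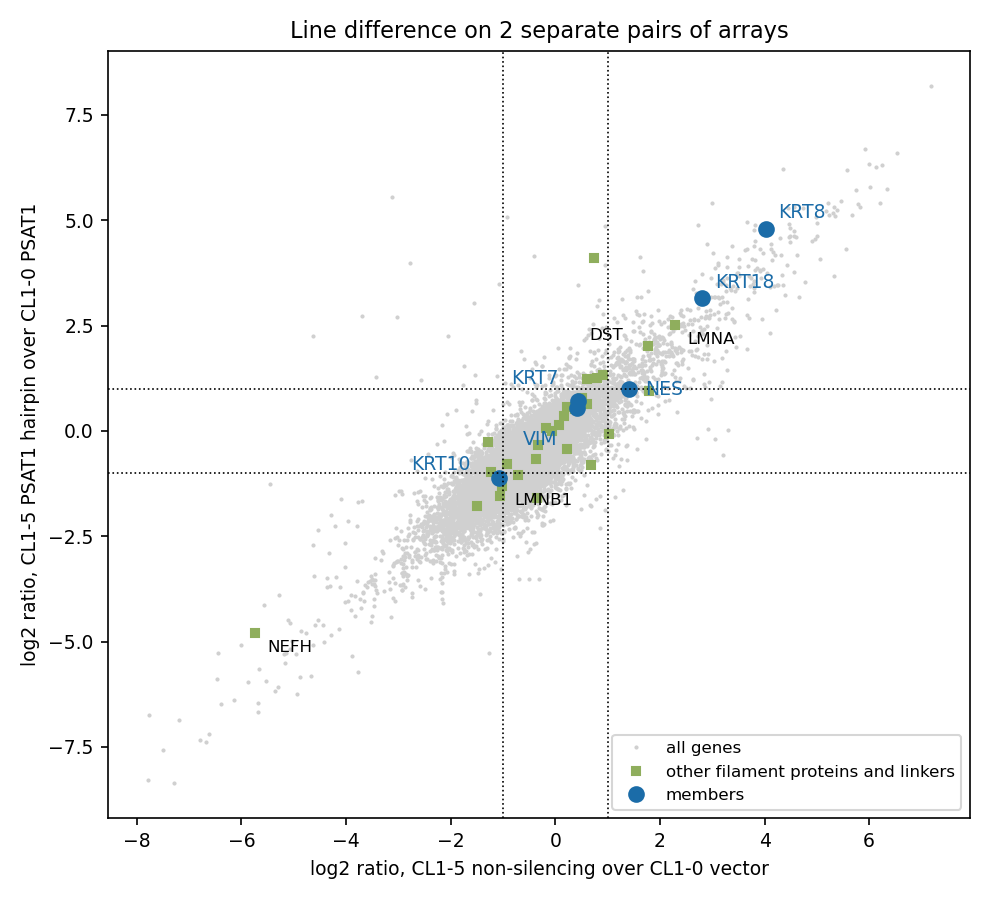
Log2 ratio of CL1-5 over CL1-0 for each gene between the control arrays (x axis) and between the PSAT1 hairpin and PSAT1 arrays (y axis), with 2-fold as dotted lines, the 8 genes followed (members) in blue where measured, other filament proteins and linkers as green squares and all genes in grey. KRT8 (4.03 and 4.79) and KRT18 (2.81 and 3.15) lie far to the upper right, NES lies on the 2-fold line of the y axis, KRT7 and VIM lie inside the 2-fold lines, and KRT10 lies just past them at the lower left.

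Ratios between 2 probe sets above the floor on the same array are free of any single scale factor per array, though not of quantile normalization. The log2 ratio of KRT8 to VIM was greater by 3.62 on the CL1-5 than on the CL1-0 control array, that of KRT18 to VIM by 2.40 and that of NES to VIM by 0.99, while that of KRT10 to VIM differed by -1.49. The corresponding values between the PSAT1 hairpin array of CL1-5 and the PSAT1 array of CL1-0 were 4.25, 2.61, 0.45 and -1.67, the value of NES being a bound because the PSAT1 array was under the floor. The log2 ratio of KRT8 to its partner KRT18 was greater in CL1-5 by 1.22 between the controls and by 1.64 between the other arrays. With quantile normalization the control values became 3.80 for KRT8, 2.67 for KRT18, 1.06 for NES and -1.12 for KRT10, each relative to VIM. These are unequal changes and do not show that VIM itself was constant.

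In CL1-5 with the PSAT1 hairpin against the non-silencing control, none of the 7 measured genes reached 2-fold, where 0.398% of 12819 genes were higher and 0.421% lower (0.819% in all). Their median log2 ratio was 0.06, and that of all genes 0.02. The widest difference was that of NES, 98.1 with the hairpin against 159 with the control (log2 -0.70), and its dimmer probe set gave -0.19. Of all measured genes, 2.47% had a log2 ratio of that size or more. KRT8 followed with 1675 against 1271 (log2 0.40), a size that 10.1% of genes reached. KRT10 (0.16), KRT18 (0.09), KRT7 (-0.09), KRT80 (0.06, against an array at the floor) and VIM (0.02) differed less.

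In CL1-0 with PSAT1 against vector, none of the 6 measured genes reached 2-fold either, where 2.55% of 13185 genes were higher and 1.01% lower (3.56% in all). The median log2 ratio was -0.27 over the 6 and -0.01 over all genes, and 5 of the 6 ratios were negative. KRT7 (-0.38), KRT8 (-0.37), NES (-0.29, with the PSAT1 array at the floor), KRT18 (-0.25) and VIM (-0.12) were on the low side and KRT10 (0.20) on the high side. Ratios as large in size as that of KRT7 were found for 28.1% of measured genes and as large as that of VIM for 72.3%.

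**Figure D3:**
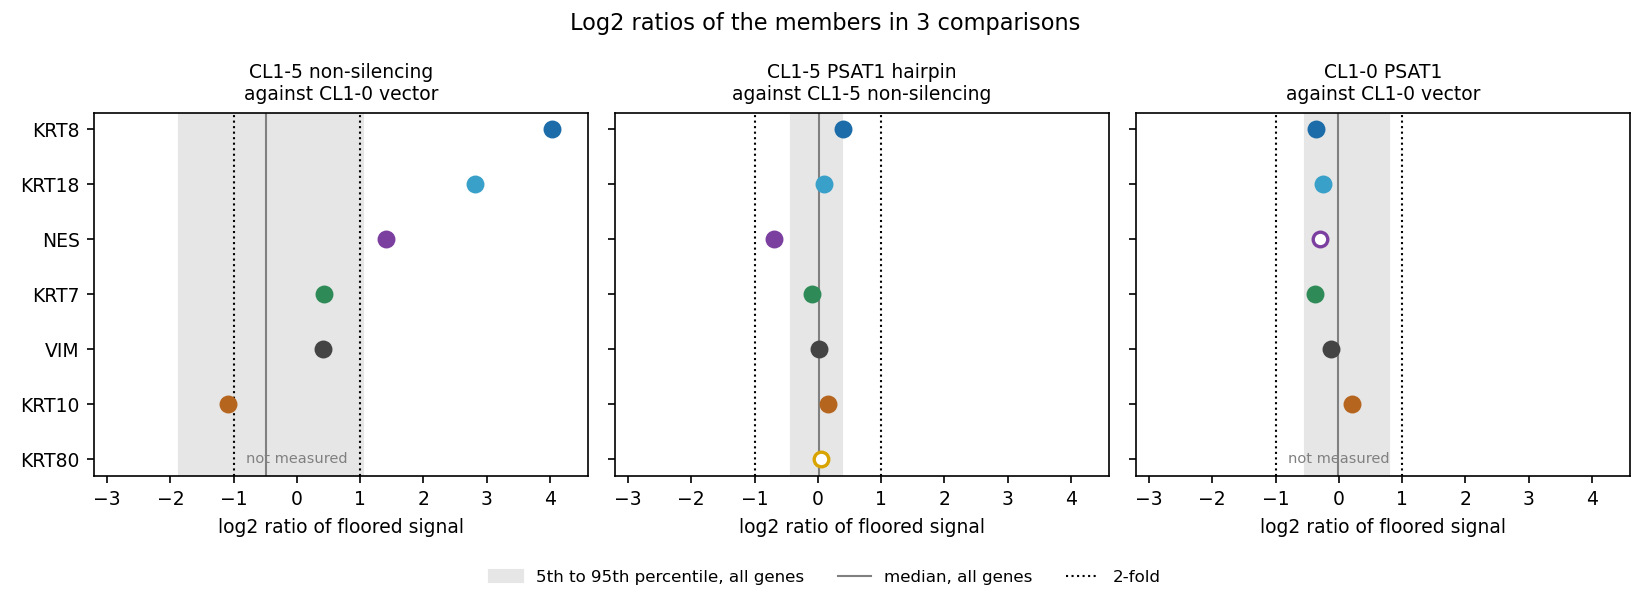
Log2 ratios of floored signal for each gene between the control arrays of the lines (left), with the PSAT1 hairpin in CL1-5 (middle) and with PSAT1 in CL1-0 (right). Open points are bounds, the grey band spans the 5th to the 95th percentile of all measured genes with their median as a line, and dotted lines mark 2-fold, which only KRT8, KRT18, NES and KRT10 pass, all 4 in the left panel.

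The pairs with the constructs share no array, and the signs were read side by side. KRT8, KRT18 and VIM had negative ratios with PSAT1 in CL1-0 and positive ones with the PSAT1 hairpin in CL1-5, which makes 3 of the 6 genes measured in both, while KRT7 and NES were negative in both and KRT10 positive in both. Among all 11939 genes measured in both pairs, 30.9% had the negative and positive combination. All of these ratios were under 2-fold.

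Other keratins were dim or under the floor. Of 38 further keratin genes with a named probe set (21 of type I and 17 of type II), 11 were above the floor on any array, and none reached the 75th percentile of signal, 213. None was called at 2-fold in any of the 3 comparisons, but where an array was under the floor the ratio is a lower bound, and a 2-fold difference cannot be told from a smaller one. Between the controls such bounds were 1.86-fold for KRT15 and 1.87-fold for KRT75, both with CL1-5 on top, and with the 25th percentile floor 2 of these keratins were higher in CL1-5 and 1 was lower. The widest bound was that of KRT14, a basal-layer keratin, which like KRT15 and KRT75 was singled out after its values were seen. It read 37.0 and 21.8 on the hairpin and non-silencing arrays of CL1-5 and 13.3 with PSAT1 in CL1-0, all under the floor, against 95.1 with vector in CL1-0, a ratio of at least 1.94-fold. KRT17 and the KRT6 genes had no probe set of their own symbol alone and were not analysed here.

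The next list held 16 further filament proteins. LMNA, the A-type nuclear lamin, read 2770 on the CL1-5 control array against 565 on the CL1-0 control array, a 4.91-fold difference in the direction of KRT8 and KRT18, and 3 of its other probe sets were above 2-fold too. One further LMNA probe set (214213_x_at) had a log2 ratio of -0.22. LMNB1, a B-type lamin, was 2.03-fold lower in CL1-5 (1930 against 3909). NEFH, the heavy neurofilament chain, was under the floor in CL1-5 (8.91 on both arrays) against 2636 in the CL1-0 control, at least 53.8-fold lower. Of this list, 2 of 15 measured genes were higher in CL1-5 between the controls (LMNA, and the neuronal INA by 2.04-fold, named after its values were seen) and 2 lower, with a median log2 ratio of 0.23. Of all genes, 5.25% were higher and 24.8% lower. The LMNB1 call was lost with quantile normalization (-0.35) and centring (-0.40), while LMNA and NEFH kept theirs under both.

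With PSAT1 in CL1-0, SYNM, the large filament protein synemin that partners vimentin and desmin, was 3.11-fold higher (555 against 179 with vector). NEFL, the light neurofilament chain, was 6.88-fold lower by 1 probe set (90.1 against 620), while a second probe set above the floor on all arrays (221916_at) had a log2 ratio of -0.34, so the fall rested on 1 of them. These were the only 2-fold differences of the list in that pair (1 higher and 1 lower of 14), where 2.55% of all genes were higher and 1.01% lower. In CL1-5 with the hairpin none of 14 reached 2-fold, where 0.819% of all genes did.

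Linkers tie filaments to junctions, to each other and to the nucleus. DST (dystonin, which anchors keratin at hemidesmosomes) was 3.41-fold higher in the CL1-5 control (1570 against 460), and TCHP (trichoplein, a keratin-binding protein) was 3.48-fold higher (564 against 162). A second TCHP probe set above the floor on all arrays (223456_s_at) had a log2 ratio of 0.91, under 2-fold. The DST call was lost with the mean over its probe sets (log2 0.67). PKP4, a plakophilin of cell junctions, was 2.08-fold lower by 1 of 5 probe sets, the others giving log2 ratios between -0.36 and 0.56, and the plakin PPL, named after its values were seen, was at least 2.81-fold lower, since CL1-5 was under the floor. Of 15 measured linkers, 2 were higher and 4 lower, with a median log2 ratio of -0.18, against 5.25% and 24.8% of all genes. The linker split turned to 6 higher and 2 lower with quantile normalization and to 6 and 1 with centring, where PKP4 lost its call (-0.33 and -0.44). DSP (desmoplakin, the keratin anchor of desmosomes) read 2062 against 1194, a 1.73-fold difference that missed the limit.

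With the constructs DST read 797 with the PSAT1 hairpin against 1570 with the non-silencing hairpin in CL1-5 (1.97-fold), and 198 with PSAT1 against 460 with vector in CL1-0 (2.33-fold). It was the single linker past 2-fold in CL1-0, of 14 measured, and none of 13 passed in CL1-5, where the shares of all genes were 3.56% and 0.819%. The DST call in CL1-0 was lost with the mean over its probe sets (log2 -0.27).

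Of 22 kinases, proteases, chaperones and other modifiers of filaments with a named probe set, 1 of 21 measured genes was higher in the CL1-5 control (the protease CAPN2, 3.08-fold) and 5 were lower, with a median log2 ratio of -0.38. The shares of all genes were 5.25% and 24.8%. The lower modifiers were HSPB1 (2.48-fold), a small heat shock protein that binds keratins, the sugar transferase OGT (2.47-fold), the kinase ROCK1 (2.29-fold), CASP6 (2.08-fold), a caspase that cuts lamin A and KRT18, and the kinase CDK5 (2.01-fold). All 5 lost their call with quantile normalization (log2 -0.31 to -0.58) and with centring (-0.39 to -0.69), and the list then had 3 higher and 0 lower genes under either. A second CASP6 probe set (209790_s_at), above the floor on all arrays, read 515 against 495 between the controls (log2 0.06), and ROCK1 (230239_at, -0.08) and OGT (207563_s_at, -0.37) also had such a probe set without a 2-fold fall. The second CAPN2 probe set (214888_at), above the floor on all arrays, had a log2 ratio of 0.66, under 2-fold. SFN, the epithelial member of the 14-3-3 family that binds phosphorylated KRT18, was 2.42-fold lower with PSAT1 in CL1-0 (199 against 482), the only difference of this list in that pair. Its probe set 209260_at had a log2 ratio of -0.64, and 33323_r_at one of -1.15 with the PSAT1 array at the floor. None of the list reached 2-fold in CL1-5 with the hairpin. Over all 5 lists, 16 of 62 measured genes (25.8%) differed between the controls (5 higher and 11 lower as reported, 14 and 3 with quantile normalization, 14 and 2 with centring), 4 of 57 (7.02%) with PSAT1 in CL1-0 and 0 of 55 with the hairpin, where the shares of all genes were 30.0%, 3.56% and 0.819%.

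KRT8 and KRT18 are neighbours on chromosome 12 in the RefSeq table (GRCh38.p14), where their spans overlap. Of the 9 nearest protein-coding genes that flank KRT18, 6 were measured between the control arrays and none was called at 2-fold, where 30.0% of all genes were, among them EIF4B at -0.59 and IGFBP6 at 0.36 (log2). KRT78, KRT79 and KRT4, on the KRT8 side, were under the floor on every array. Of the 10 genes nearest to KRT10 on chromosome 17, the 7 with a named probe set were likewise under it. Near VIM 1 of 5 measured neighbours was higher and 2 were lower in CL1-5. Lower neighbours numbered 2 of 9 near NES, 2 of 5 near KRT7 and 2 of 6 near KRT80, and near KRT19 none of 6 was called. KRT8 and KRT18 have many processed copies, with 52 and 68 entries named as their pseudogenes in the table, and their probe sets are of the kind that can match several transcripts, so signal from copies cannot be told apart from that of the genes. Of these copies only KRT8P12 was looked up, and its own probe sets read 40.8 to 81.6.

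The genes nearest in pattern over the 4 arrays were found by distance between log2 signals, each centred on its mean, among 8692 genes above the floor on every array and bright on at least 1. For KRT18 they were IL1B (distance 0.05), PLAAT1 (0.06) and SPATS2L (0.22). For KRT8 they were PLEK2 (0.39), DUSP5 (0.41) and IER3 (0.41), for KRT10 TIMM9 (0.02), ZSCAN16-AS1 (0.03) and MID1IP1 (0.04), and for NES TNFRSF10D (0.16), IL6ST (0.23) and MAP1B (0.27). KRT8 itself lay at 1.45 from KRT18, with 150 genes nearer. These distances rest on 4 arrays and are a description of them.

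The labels call both lines type II alveolar cells. Of 11 markers of that type with a named probe set, 9 were above the floor somewhere, but only LPCAT1 and ETV5 were above the 75th percentile on every array, and neither is restricted to that cell type. SFTPB, a surfactant protein, read 106 to 191 on the 4 arrays. Of 11 epithelial markers with a named probe set, 7 were above the floor on 1 array or more, and CDH1, EPCAM, ESRP1 and GRHL2 were under it on all 4. The summed signal of the 11, with each gene under the floor raised to it, was 899 and 851 on the hairpin and non-silencing arrays of CL1-5. On the PSAT1 and vector arrays of CL1-0 it was 759 and 921. CLDN4, a tight junction claudin, read 203 and 229 on the hairpin and non-silencing arrays of CL1-5 against 29.7 and 112 on the PSAT1 and vector arrays of CL1-0, which made it 2.04-fold higher in the CL1-5 control and at least 2.29-fold lower with PSAT1 in CL1-0. CD24, a surface glycoprotein of epithelia named after its values were seen, read 168 and 52.0 on the hairpin and non-silencing arrays against 66.6 and 151.6 on the PSAT1 and vector arrays. It was 2.92-fold lower in the CL1-5 control than in the CL1-0 control, 3.23-fold higher with the hairpin and 2.28-fold lower with PSAT1. Of 10 fibroblast markers, 5 were under the floor on every array, namely COL1A2, DCN, LUM, PDGFRA and FAP, while COL1A1 read 221 to 288. POSTN read 7.41 and 8.44 on the hairpin and non-silencing arrays of CL1-5, 118 with PSAT1 and 2154 with vector in CL1-0. COL3A1 read 15.8, 16.4, 27.4 and 312 in that order. The summed signal of the list, with each gene at the floor or above, was 765 and 757 in CL1-5 with hairpin and non-silencing control, 747 with PSAT1 and 3105 with vector in CL1-0, while VIM, high in fibroblasts too, read 13287 on that vector array. The part of these markers in the results was not tested. No immune or endothelial marker passed the 75th percentile. PECAM1, an endothelial marker named after its values were seen, read 150 on the CL1-5 control array against 69.9 on the CL1-0 control array (2.15-fold). In bulk RNA, fewer cells of a kind and less RNA per cell cannot be told apart.

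**Figure D4:**
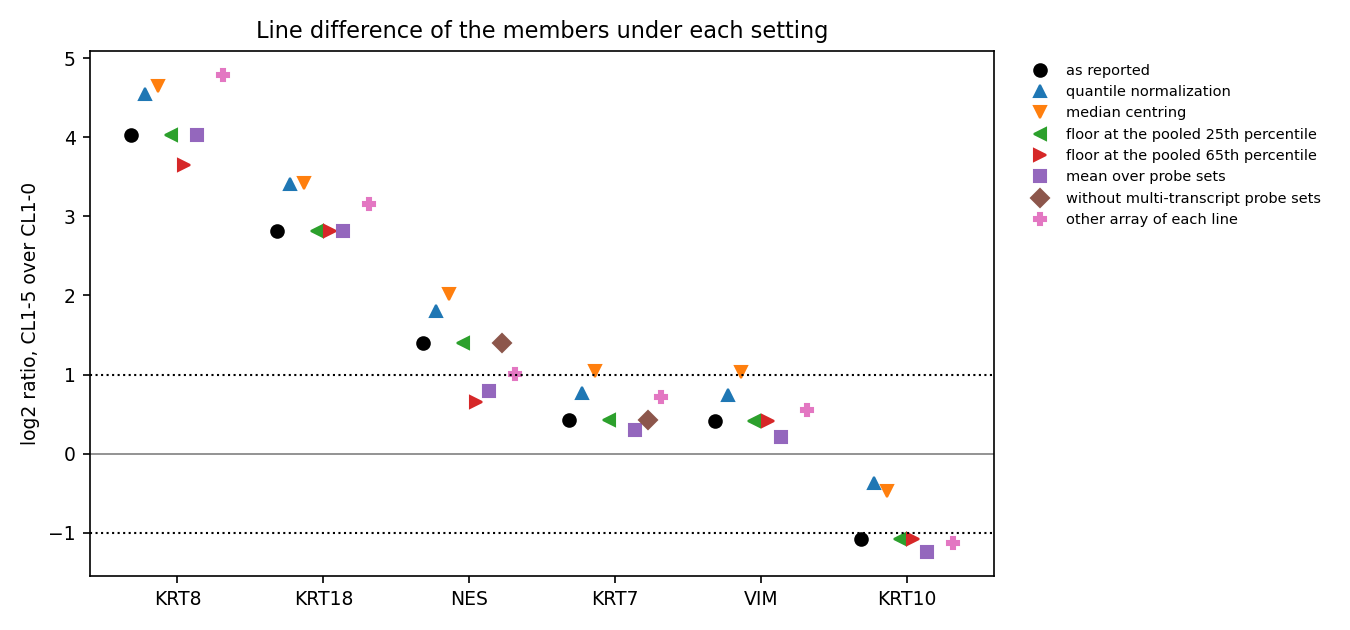
Log2 ratio of CL1-5 over CL1-0 control for the 6 measured genes, as reported and under each other scaling, floor, probe set choice and pair of arrays, with 2-fold as dotted lines. KRT8 stays between 3.65 and 4.79 and KRT18 between 2.81 and 3.43, whereas NES, KRT7, VIM and KRT10 each cross a 2-fold line under some setting. Without multi-transcript probe sets only KRT7 and NES have a point. The mean over probe sets cannot move KRT8 or KRT18, which have 1 probe set each.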

How the data were processed

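The authors deposited 1 linear intensity per probe set for each of 4 one-colour Affymetrix arrays, computed with MAS5 per the submitters' processing notes. Its version, the scaling target and detection calls are not given in the sources used here. Biotinylated cRNA came from 6 ug of total RNA, per the labels. The table held 54675 probe sets, 62 of them controls. The platform annotation gave a single symbol to 41097, several to 1801 and none to 11777. Symbols were updated through the RefSeq gene table for 41043, and 63 probe sets of Y-linked and X-inactivation genes were left out. Values under the floor (50th percentile of non-control probe sets, 49.0) were raised to it and log2 transformed (pandas 2.3.3, numpy 2.4.6). The brightest probe set stood for a gene, which counted as measured where 1 of the compared arrays was above the floor. Comparisons were CL1-5 control against CL1-0 control and each construct against its control. With 1 array per group there is no test. Probe sets of 1 gene scattered around each other with an SD (log2) of 0.18 for the hairpin against its control, 0.30 for PSAT1 against vector and 0.59 for line against line. Fold calling was tested on simulated data with changes larger than 2-fold in genes well above the floor. That test does not cover genes near the floor or differences near the limit. Beside the 8 genes and PSAT1, the text names up to 6 genes per list and comparison with the largest 2-fold difference and a brighter array at the 75th percentile (213), bright markers, the 3 genes nearest in pattern, and others singled out after their values were seen. The genes, lists and settings were chosen with earlier results of these data known.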

Additional observations from a re-analysis of the deposited data

How the results depend on the processing

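No paired analysis was possible because each group has 1 array. The alternatives were quantile normalization, median centring, floors at the 25th and 65th percentiles, the mean over probe sets, no multi-transcript probe sets, folds of 1.5 and 3, and, added after the data were seen, the other array of each line. With PSAT1 in CL1-0 the count of the 8 genes past the limit was 0 in every setting, and with the hairpin in CL1-5 it was 0 except at 1.5-fold, where NES made it 1. Between the control arrays, where the count was 4 of 6 measured, it was 2 of 6 at 3-fold (KRT8 and KRT18). It was 1 of 2 (NES) without multi-transcript probe sets, since all probe sets of KRT8, KRT10, KRT18 and VIM are of that kind. It was 3 of 7 with quantile normalization (KRT10 lost) and 5 of 8 with centring (KRT10 lost, KRT7 and VIM gained). With the 25th percentile floor it was 6 of 8 (KRT19 and KRT80 gained). It was 3 of 5 with the 65th percentile floor and 3 of 6 with the mean over probe sets (NES lost both times). Over the 5 lists of filament genes the count between the controls was 16 as reported (5 higher, 11 lower), 17 with quantile normalization (14 and 3), 16 with centring (14 and 2), 20 (8 and 12) if the floor is the 25th percentile, 10 with the mean over probe sets, 9 without multi-transcript probe sets, 34 at 1.5-fold and 5 at 3-fold. Beside both sets of counts, the share of all genes called between the controls was 30.0% as reported, 18.5% with quantile normalization and 18.9% with centring. It was 27.3% and 32.5% with the 25th and 65th percentile floors. With the mean over probe sets it was 20.2%, and without multi-transcript probe sets 30.5%. At 1.5-fold and 3-fold, where the lists had 62 measured genes, it was 53.0% and 12.1%. In CL1-0 the lists gave 4 of 57 as reported, 10 at 1.5-fold and 2 at 3-fold. The shares of all genes there were 3.56%, 13.2% and 0.865%. In CL1-5 the lists gave 0 of 55 as reported and 4 at 1.5-fold, against 0.819% and 3.81% of all genes. Over all genes, 17.5% of the 2-fold differences between the controls were rises in CL1-5 as reported, against 51.7% with quantile normalization (1307 higher, 1221 lower) and 54.6% with centring (1440 and 1195). For the CL1-0 pair this share was 71.6% as reported, 62.5% with quantile normalization, 63.3% with centring and 53.5% at 3-fold. The count of 2-fold differences over all genes was 469 in CL1-0 as reported and 245 with the mean over probe sets. Of the 16 list genes called between the controls, 8 kept their call with quantile normalization and 7 with centring, and none of those measured changed sign under the other scalings, floors and probe set choices, nor did KRT8, KRT18, NES or KRT10 where measured. Without multi-transcript probe sets KRT8, KRT18 and KRT10 had no value. The mean over probe sets could not change KRT8 or KRT18, which have 1 probe set each. Single arrays and the missing detection calls limit what can be said of KRT7, KRT19, KRT80 and NES, whose signals lie near the floor.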
